A study of Arabidopsis thaliana with 12 samples.

Results

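The genes described here are 42 nuclear genes of Arabidopsis thaliana that encode the light-harvesting antennae and subunits of both photosystems: 14 LHCB genes, 6 LHCA genes, 12 PSA genes of photosystem I and 10 PSB genes of photosystem II. They were taken by their locus identifiers from the 33602 gene IDs in the deposited tables, and all 42 passed the filter on low values (at least 1 FPKM in at least 3 libraries). Transcripts were sequenced in 12 libraries of developing seeds, 3 per group. The groups were the mutants dellaq and lec1-4 and wild-type Col-0, which the labels split into Col-0-2 and Col-0-1. Growth was at 22 °C under days of 16 h light and 8 h dark. Seeds were dissected 9 days after pollination, and poly-A RNA was selected with poly-T beads. DELLA proteins are growth repressors whose removal is triggered by gibberellin, and LEC1 is a subunit of a CCAAT-binding factor that controls embryo development. The labels define dellaq by that name alone and lec1-4 by its allele name. No label pairs a mutant with 1 of the wild-type sets, so both sets were used throughout. It is also not stated that replicates came from separate plants, and p-values therefore reflect a spread among libraries that could be technical.

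Photosystem II, with its LHCB antenna, extracts electrons from water, and photosystem I, with its LHCA antenna, passes them on to ferredoxin. The reaction-centre proteins are encoded in the plastid, whereas the antennae and most peripheral subunits are made in the cytosol from nuclear transcripts. Arabidopsis embryos are green in mid development and lose their chlorophyll as the seed dries, and nuclear photosystem genes are transcribed in the green embryo.

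The 5 LHCB1 copies encode nearly the same protein of the major antenna, and the start of their coding sequences is shown because it tells how far reads can separate them. The first 60 coding bases (RefSeq, assembly TAIR10.1, read from the annotated start codon on the coding strand) are given with capitals at the 16 positions where the copies differ. LHCB1.1, LHCB1.2 and LHCB1.3 are neighbours on chromosome 1, and LHCB1.4 and LHCB1.5 lie on chromosome 2.
LHCB1.1: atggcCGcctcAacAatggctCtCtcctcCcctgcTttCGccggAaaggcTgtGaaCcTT
LHCB1.2: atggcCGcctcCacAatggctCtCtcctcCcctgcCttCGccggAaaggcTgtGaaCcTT
LHCB1.3: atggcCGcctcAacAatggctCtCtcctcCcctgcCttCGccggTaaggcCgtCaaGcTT
LHCB1.4: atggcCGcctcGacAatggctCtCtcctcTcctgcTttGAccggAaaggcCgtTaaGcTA
LHCB1.5: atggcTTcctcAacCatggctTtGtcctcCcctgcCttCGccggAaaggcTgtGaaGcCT
Over the whole coding sequence the 3 copies on chromosome 1 were 95.6% to 96.4% identical. Their longest shared run was 119 bases, in LHCB1.1 and LHCB1.3. LHCB1.4 and LHCB1.5 were 91.4% identical and shared a run of 122 bases. Single values of these copies are therefore uncertain where reads could be split between them. Shared reads were less of a limit for the 6 other paralog pairs, which were 76.5% to 87.0% identical and shared no run over 35 bases.

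The upstream sequences of 4 genes that the results below turn on are given to show that the near-identical LHCB1 coding sequences sit behind different promoters, and that LHCB6 has a G-box and no CCAAT. Each is the 150 bases before the annotated gene start, written in the direction of transcription, with TAIR10.1 coordinates. The authors' build is not given in the sources used here, and their tables hold no coordinates. Capitals mark CACGTG (the G-box, bound by bZIP and bHLH factors), CCAAT (the site of NF-Y complexes) and GATAA (part of the I-box of light-regulated genes), each on either strand, so that CCAAT also appears as ATTGG and GATAA as TTATC.
LHCB1.1, chr1:10475970-10476119, minus strand: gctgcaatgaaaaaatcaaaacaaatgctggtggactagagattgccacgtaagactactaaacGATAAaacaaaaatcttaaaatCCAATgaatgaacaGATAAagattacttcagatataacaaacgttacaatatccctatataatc
LHCB1.2, chr1:10473503-10473652, minus strand: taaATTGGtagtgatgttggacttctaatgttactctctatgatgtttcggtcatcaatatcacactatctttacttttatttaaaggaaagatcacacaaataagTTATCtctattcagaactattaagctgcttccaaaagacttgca
LHCB1.3, chr1:10477735-10477884, plus strand: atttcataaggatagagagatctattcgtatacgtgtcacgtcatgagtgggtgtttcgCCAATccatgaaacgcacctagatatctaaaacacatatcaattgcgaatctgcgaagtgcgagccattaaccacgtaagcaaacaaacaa
LHCB6, chr1:5447881-5448030, minus strand: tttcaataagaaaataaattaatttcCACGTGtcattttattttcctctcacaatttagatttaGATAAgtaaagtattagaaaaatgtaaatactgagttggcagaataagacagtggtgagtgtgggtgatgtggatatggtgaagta
In windows of 250 bases, CCAAT was present in 27 of the 42 promoters (64.3%), against 47.4% of 20056 promoters of tested genes and 44.8% of all 37897 promoters. Among the families, CCAAT was found in 13 of 14 LHCB, 5 of 6 LHCA, 7 of 12 PSA and 2 of 10 PSB promoters. CACGTG was present in 8 of the 42 (19.0%), against 7.38% of tested genes and 5.39% of all promoters. GATAA was present in 32 of the 42 (76.2%), against 55.2% of tested genes and 54.3% of all promoters. The longer CCAATC, which contains CCAAT, was in 26.2% of the 42, 10.3% of tested genes and 10.5% of all promoters. GATAAG, which contains GATAA, was in 21.4%, 12.4% and 12.7%. A match to these letters is a description of the window and not a measured binding site.

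The smallest FPKM steps within a library correspond to an estimated depth of 13.7 to 19.4 M fragments. FPKM sums ranged from 781827 to 786547 in dellaq, 685533 to 687095 in lec1-4, 755866 to 768394 in Col-0-2 and 685062 to 691811 in Col-0-1. LEC1 was at 2.38 to 3.42 FPKM in lec1-4 and 67.5 to 124.5 FPKM in the 6 wild-type libraries. Of the 5 DELLA genes, RGL1 was at 1.05 to 1.61 FPKM in dellaq, against 8.43 to 14.5 FPKM in wild type, and RGL2 at 3.74 to 6.01 FPKM in dellaq, against 16.1 to 26.1 FPKM in wild type. GAI, RGA and RGL3 were at 6.63 to 12.2, 20.5 to 21.0 and 7.19 to 8.88 FPKM in dellaq, and at 7.78 to 9.56, 24.7 to 29.2 and 5.89 to 7.09 FPKM in wild type. The libraries divided by summed plastid-encoded FPKM in a way the labels do not explain, with 7116 to 8593 in dellaq, 127 to 186 in lec1-4, 4523 to 5039 in Col-0-2 and 172 to 251 in Col-0-1. On this measure, as on the sum of all FPKM, dellaq lay nearer to Col-0-2 and lec1-4 nearer to Col-0-1. The part of this division in the results below was not tested.

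The 42 genes were most abundant in dellaq and Col-0-1 and less abundant in lec1-4 and Col-0-2. Their summed level was 24985 ± 895 FPKM in dellaq, 15131 ± 208 in lec1-4, 13990.3 ± 842 in Col-0-2 and 22782 ± 1457 in Col-0-1 (SD, n = 3 each). These sums were 3.19%, 2.21%, 1.83% and 3.31% of all FPKM in the same order of groups. The ranges of the 2 wild-type sets did not overlap. Of the 42 genes, 38 averaged over 100 FPKM, and the means over 12 libraries ran from 7.32 FPKM for LHCA6 to 3991 FPKM for LHCB1.3. Because whole seeds were used, fewer green cells and less RNA per cell cannot be told apart.

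**Figure D1:**
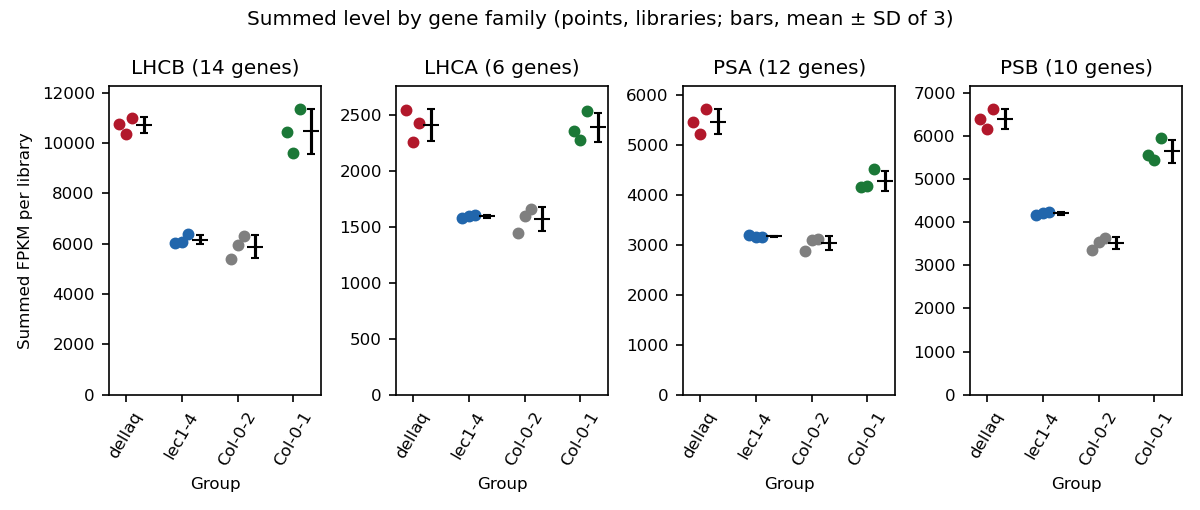
Summed FPKM per library (vertical axes, each from 0) of the LHCB, LHCA, PSA and PSB genes in dellaq, lec1-4, Col-0-2 and Col-0-1, with points for libraries and bars for the mean ± SD of 3. In every family the dellaq and Col-0-1 libraries lie above the lec1-4 and Col-0-2 libraries, and the dellaq libraries also lie above Col-0-1 in PSA (5225 to 5721 FPKM against 4151 to 4518 FPKM) and PSB (6156 to 6623 FPKM against 5444 to 5948 FPKM). The sum of all FPKM was also larger in dellaq (781827 to 786547) than in Col-0-1 (685062 to 691811). The family sums were not scaled for this.

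Gene by gene, dellaq had the highest group mean for 29 of the 42 genes, Col-0-1 for 11, and lec1-4 and Col-0-2 for 1 each. The lowest mean was in Col-0-2 for 22 genes, in lec1-4 for 18 and in dellaq for 2. These means were not rescaled, and the sum of all FPKM was larger in dellaq than in Col-0-1. How all tested genes rank in this way was not computed. All 3 dellaq libraries exceeded all 6 wild-type libraries for 21 of the 42 genes, where 10.5% of all tested genes did so. They lay below all 6 for 2 genes, LHCB1.4 and LHCA6, where 30.0% of all tested genes did so. In lec1-4, 15 of the 42 genes lay below all 6 wild-type libraries, against 5.46% of all tested genes. Only LHCA6 lay above all 6 in lec1-4, against 14.9% of all tested genes.

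**Figure D2:**
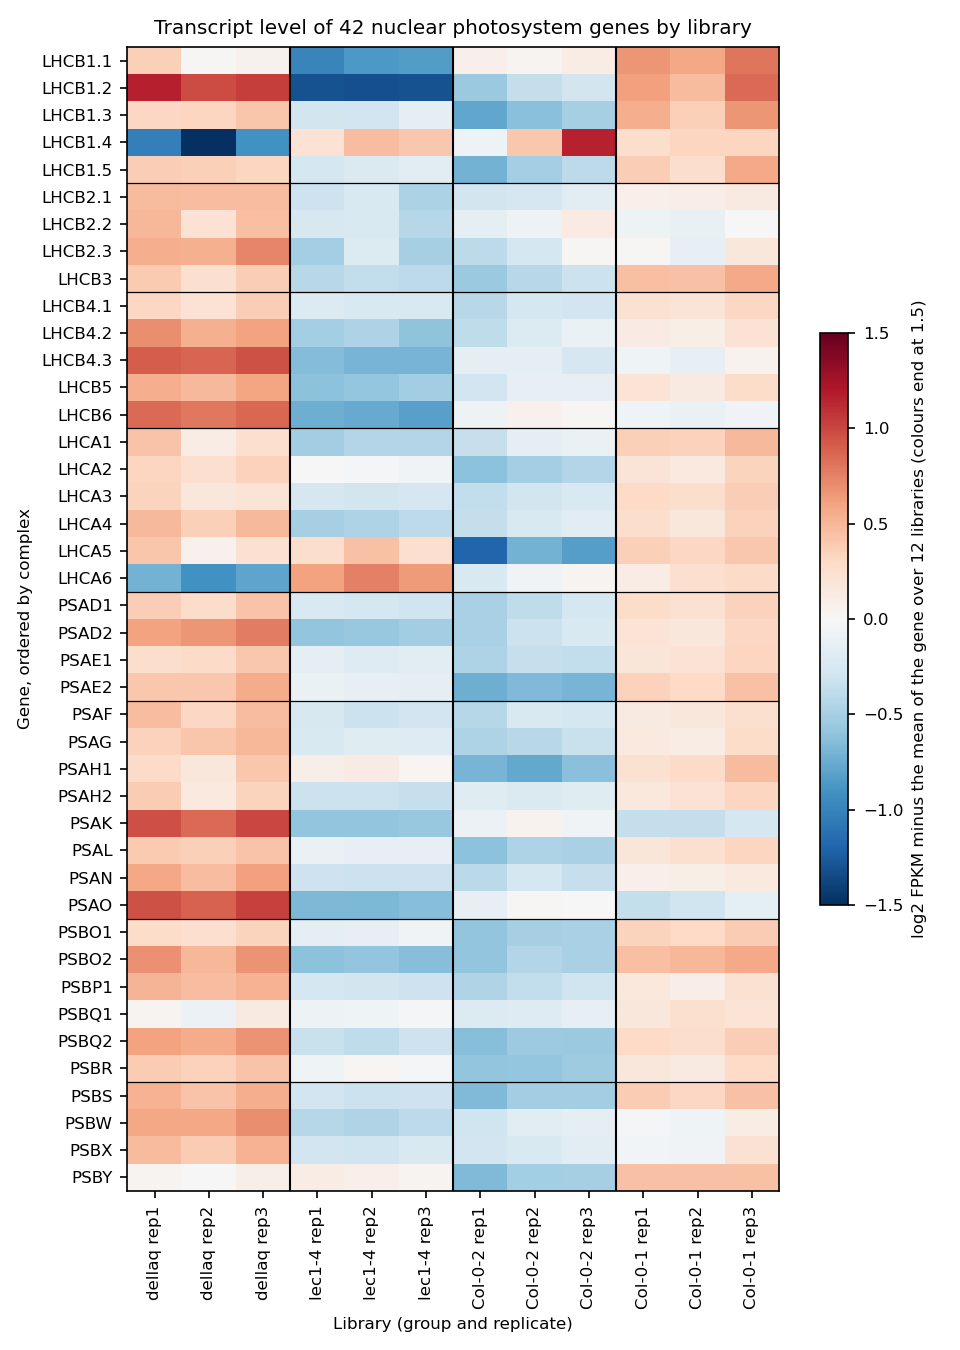
Level of each of the 42 genes (rows, ordered by complex) in each of the 12 libraries (columns, by group), as log2 FPKM minus the mean of that gene over the 12 libraries. Most rows are above their mean (red) in dellaq and Col-0-1 and below it (blue) in lec1-4 and Col-0-2, while LHCB1.4 and LHCA6 are lowest in dellaq.

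Gene-wise changes were tested with limma on log2(FPKM + 1) across all 20222 tested genes, and a gene was called at an adjusted p under 0.05. Against Col-0-2, 39 of the 42 genes were higher in dellaq (background 21.9% of tested genes) and 2 were lower (background 41.6%). The median log2 change of the 42 genes was 0.82, against -0.12 over all tested genes. Against Col-0-1, 22 were higher in dellaq (background 19.4%) and 6 were lower (background 50.9%), with a median of 0.14 against -0.22 over all tested genes. Since the median of all genes lay below 0 here, scaling of the libraries matters for this comparison. The 42 genes split into 33 higher (background 32.4%) and 4 lower (background 29.8%) under median-ratio scaling. They split into 16 higher (background 13.2%) and 15 lower (background 64.2%) when FPKM sums were made equal.

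In lec1-4, 38 of the 42 genes were lower than in Col-0-1 (background 10.7%) and 1 was higher (background 15.8%). The median log2 change was -0.45, against 0.05 over all tested genes. Against Col-0-2 the genes were divided, with 15 higher in lec1-4 (background 42.7%) and 13 lower (background 23.3%), and a median of 0.03 against 0.13 over all tested genes. That split was 10 higher (background 29.6%) and 21 lower (background 32.3%) under median-ratio scaling. It was 11 higher (background 31.6%) and 19 lower (background 30.7%) under upper-quartile scaling. With equal FPKM sums it was 23 higher (background 55.5%) and 7 lower (background 17.2%), shares near those of all tested genes. Between the mutants, which no wild-type set enters, 37 genes were higher in dellaq than in lec1-4 (background 20.2%) and 2 were lower (background 54.6%), with a median of 0.71 against -0.27 over all tested genes. Between the wild-type sets, 2 genes were higher in Col-0-2 than in Col-0-1 (background 25.8%) and 36 were lower (background 40.1%), with a median of -0.58 against -0.10 over all tested genes. The wild-type sets thus differed for most of these genes, and the comparisons that share a set are not independent of each other.

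**Figure D3:**
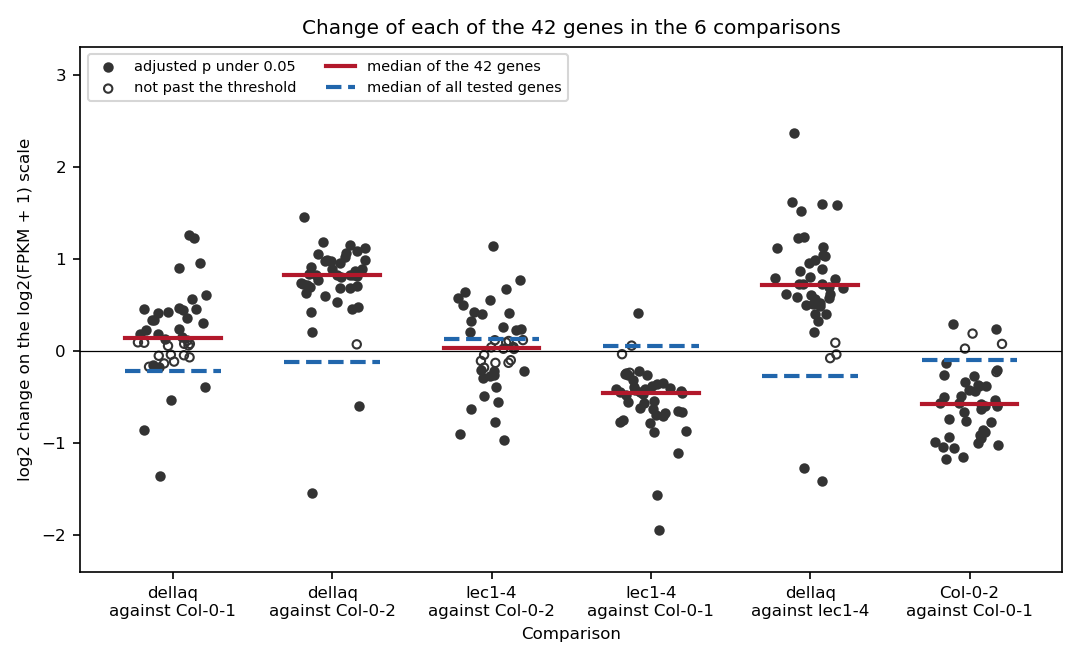
Log2 change of each of the 42 genes (points) on the log2(FPKM + 1) scale in 6 comparisons, with filled points for adjusted p under 0.05, the median of the 42 genes as a solid line and that of all tested genes as a dashed line. The 42 genes lie mostly above 0 for dellaq against Col-0-2 and against lec1-4, mostly below 0 for lec1-4 against Col-0-1, and on both sides of 0 for dellaq against Col-0-1 and for lec1-4 against Col-0-2.

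The LHCB1 copies of the major LHCII antenna differed from each other in level and in change. LHCB1.2 (AT1G29910) was at 775, 684 and 713 FPKM in the dellaq libraries, 139.6, 139 and 140.1 in lec1-4, 235, 269.6 and 286 in Col-0-2 and 529, 480.5 and 626 in Col-0-1. No 2 of these groups overlapped. It rose in dellaq by a log2 change of 1.46 ± 0.09 against Col-0-2 (SE, adjusted p = 5.4e-08) and 0.42 ± 0.09 against Col-0-1 (adjusted p = 0.0014). In lec1-4 it fell by more than any other of the 42 genes against Col-0-1, with a log2 change of -1.95 ± 0.09 (adjusted p = 4.6e-08), and changed by -0.91 ± 0.09 against Col-0-2 (adjusted p = 3.2e-06). Between the mutants the log2 difference, dellaq minus lec1-4, was 2.37.

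LHCB1.1 (AT1G29920), its neighbour, was at 276, 219 and 226 FPKM in dellaq, 109, 119 and 121 in lec1-4, 228, 222 and 233 in Col-0-2 and 341, 323 and 376 in Col-0-1. The dellaq libraries overlapped Col-0-2 and lay below Col-0-1, and the lec1-4 libraries lay below both. LHCB1.1 fell in lec1-4, with log2 changes of -0.96 ± 0.08 against Col-0-2 (adjusted p = 8.2e-07) and -1.57 ± 0.08 against Col-0-1 (adjusted p = 1.1e-07). In dellaq it was lower than in Col-0-1 (-0.53 ± 0.08, adjusted p = 9.6e-05), with a value of 0.07 ± 0.08 against Col-0-2 (adjusted p = 0.48).

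LHCB1.3 (AT1G29930) was the most abundant of the 42 transcripts, at 4700.4, 4723 and 5048 FPKM in dellaq, 3133, 3113 and 3427 in lec1-4, 2217, 2459 and 2691 in Col-0-2 and 5515, 4876 and 5985 in Col-0-1. It made up 70.8% of LHCB1 FPKM in dellaq, 76.9% in lec1-4, 69.6% in Col-0-2 and 73.5% in Col-0-1. Unlike LHCB1.1 and LHCB1.2, it was higher in lec1-4 than in Col-0-2 (0.40 ± 0.09, adjusted p = 0.0022), while it was lower than in Col-0-1 (-0.76 ± 0.09, adjusted p = 8.5e-05). LHCB1.3 also had 1 of the largest differences between the wild-type sets, -1.15 for Col-0-2 minus Col-0-1.

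LHCB1.4 (AT2G34430) was the rarest copy and went the other way in dellaq, at 9.45, 6.54 and 10.2 FPKM, against 22.3, 26.5 and 25.4 in lec1-4, 18.2, 25.4 and 42.7 in Col-0-2 and 23.1, 24.0 and 24.0 in Col-0-1. Every dellaq library lay below every other library. The log2 change in dellaq was -1.55 ± 0.23 against Col-0-2 (adjusted p = 8.5e-05) and -1.36 ± 0.23 against Col-0-1 (adjusted p = 2.1e-04). LHCB1.5, the fifth copy, was at 1030.5, 1019 and 994 FPKM in dellaq and 1032, 958 and 1182 in Col-0-1, which overlapped, and at 662, 686 and 709.8 in lec1-4 and 488, 559 and 606 in Col-0-2.

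LHCB2 and LHCB3 are the other LHCII proteins. In dellaq all 4 of their genes exceeded Col-0-2, with log2 changes of 0.42 to 0.80. LHCB3, the most abundant of them, was at 359, 322 and 351 FPKM in dellaq and 372, 371 and 405 in Col-0-1, and at 204, 210.2 and 208 in lec1-4 and 186, 203 and 218 in Col-0-2. LHCB2.3, the rarest, was at 61.9, 61.3 and 70.4 FPKM in dellaq, above 29.8, 37.0 and 30.00 in lec1-4, 32.4, 35.3 and 42.9 in Col-0-2 and 43.0, 39.1 and 47.7 in Col-0-1. In dellaq all 3 LHCB2 genes lay above all wild-type libraries, whereas LHCB3 did not.

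The minor antennae CP29 (LHCB4), CP26 (LHCB5) and CP24 (LHCB6) link LHCII trimers to the photosystem II core. In dellaq all 5 genes exceeded Col-0-2 (0.63 to 1.09), and all 5 were lower in lec1-4 than in Col-0-1 (-0.77 to -0.46). LHCB6 (AT1G15820) was at 757, 722 and 761 FPKM in dellaq, 252, 248 and 238 in lec1-4, 397, 439.6 and 425 in Col-0-2 and 400.3, 392 and 404 in Col-0-1. Its 2 wild-type sets overlapped, the dellaq libraries lay above both and the lec1-4 libraries below both. LHCB6 rose in dellaq by 0.83 ± 0.05 against Col-0-2 (adjusted p = 2.2e-08) and 0.90 ± 0.05 against Col-0-1 (adjusted p = 1.0e-08). It fell in lec1-4, with -0.77 ± 0.05 against Col-0-2 (adjusted p = 4.0e-08) and -0.69 ± 0.05 against Col-0-1 (adjusted p = 5.8e-07).

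LHCB4.3 (AT2G40100), a CP29 form of its own type, was at 227, 222 and 234 FPKM in dellaq, 77.0, 74.6 and 74.4 in lec1-4, 109, 109 and 102 in Col-0-2 and 116, 111 and 125 in Col-0-1. It rose in dellaq against Col-0-2 (1.09 ± 0.05, adjusted p = 6.2e-09) and Col-0-1 (0.95 ± 0.05, adjusted p = 1.0e-08), and fell in lec1-4 against Col-0-2 (-0.50 ± 0.05, adjusted p = 2.3e-06) and Col-0-1 (-0.63 ± 0.05, adjusted p = 2.0e-06). LHCB5 (AT4G10340), the most abundant minor antenna gene, was at 984, 947 and 1014 FPKM in dellaq, 441, 452 and 469 in lec1-4, 553, 618 and 618 in Col-0-2 and 775, 741 and 815 in Col-0-1. For LHCB5, as for LHCB6 and LHCB4.3, no dellaq and no lec1-4 library fell within the range of the 6 wild-type libraries.

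LHCA1 to LHCA4 form the antenna belt of photosystem I, while LHCA5 and LHCA6 are scarce proteins that link photosystem I to the NDH complex. In dellaq LHCA1 to LHCA4 exceeded Col-0-2, and in lec1-4 they were lower than in Col-0-1. LHCA4, the most abundant of the 6 over the 12 libraries, was at 711, 651 and 712 FPKM in dellaq, 360.4, 369.9 and 387 in lec1-4, 398, 435 and 457 in Col-0-2 and 613, 572 and 645 in Col-0-1. LHCA6 (AT1G19150) was at 4.19, 3.64 and 3.95 FPKM in dellaq, 10.4, 11.6 and 10.7 in lec1-4, 5.82, 6.58 and 7.07 in Col-0-2 and 7.42, 8.17 and 8.34 in Col-0-1. For LHCA6 every dellaq library lay below and every lec1-4 library above all wild-type libraries.

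LHCA6 fell in dellaq, with -0.60 ± 0.08 against Col-0-2 (adjusted p = 5.0e-05) and -0.87 ± 0.08 against Col-0-1 (adjusted p = 2.1e-06). It rose in lec1-4, with 0.67 ± 0.08 against Col-0-2 (adjusted p = 2.1e-05) and 0.41 ± 0.08 against Col-0-1 (adjusted p = 0.0037). LHCA5 (AT1G45474) followed neither pattern, at 21.2, 16.7 and 18.6 FPKM in dellaq, 19.1, 21.6 and 19.0 in lec1-4, 6.98, 9.77 and 9.02 in Col-0-2 and 20.5, 19.8 and 21.1 in Col-0-1. Only Col-0-2 stood apart for LHCA5, with a log2 difference of -1.17 ± 0.11 for Col-0-2 minus Col-0-1 (adjusted p = 1.5e-06), so that the change of lec1-4 against Col-0-2 (1.13 ± 0.11, adjusted p = 2.2e-06) had no counterpart against Col-0-1 (-0.04 ± 0.11, adjusted p = 0.84). Both are low transcripts, for which the added 1 FPKM makes log2 changes smaller than those of the FPKM values.

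On the stroma side of photosystem I, PSAD and PSAE hold the docking site of ferredoxin. In dellaq all 4 genes exceeded Col-0-2 (0.70 to 1.15), and in lec1-4 they were lower than in Col-0-1 (-0.78 to -0.41). PSAD1 (AT4G02770), the most abundant, was at 608, 571 and 632 FPKM in dellaq, 400.2, 392 and 383 in lec1-4, 335, 361 and 392 in Col-0-2 and 571, 551 and 596 in Col-0-1. PSAD2 (AT1G03130), the rarest, was at 212, 220.0 and 238 FPKM in dellaq, 92.1, 93.8 and 96.6 in lec1-4, 99.6, 111 and 119 in Col-0-2 and 160.4, 156 and 173 in Col-0-1. For PSAD1 dellaq and Col-0-1 overlapped, whereas for PSAD2 dellaq lay above and lec1-4 below every wild-type library. PSAE2 rose in dellaq against Col-0-2 (1.15 ± 0.05, adjusted p = 5.2e-09), with a value of 0.09 ± 0.05 against Col-0-1 (adjusted p = 0.11).

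The largest rises in dellaq against Col-0-1 were in PSAK and PSAO, 2 small membrane subunits at opposite edges of photosystem I, PSAK beside the LHCA belt and PSAO on the side where LHCII docks. PSAK (AT1G30380) was at 561, 517 and 573 FPKM in dellaq, 190.4, 189 and 192 in lec1-4, 269, 297 and 276 in Col-0-2 and 224, 223 and 238 in Col-0-1. PSAO (AT1G08380) was at 656, 625 and 688 FPKM in dellaq, 211, 212 and 217 in lec1-4, 311, 341 and 339 in Col-0-2 and 264, 274 and 306 in Col-0-1. For both, every dellaq library lay above and every lec1-4 library below all wild-type libraries, and these were the 2 genes that were higher in Col-0-2 than in Col-0-1.

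PSAK rose in dellaq by 1.26 ± 0.05 against Col-0-1 (adjusted p = 1.6e-09) and 0.97 ± 0.05 against Col-0-2 (adjusted p = 1.5e-08). PSAO rose by 1.22 ± 0.06 against Col-0-1 (adjusted p = 7.4e-09) and 0.99 ± 0.06 against Col-0-2 (adjusted p = 3.9e-08). In lec1-4 PSAO fell against Col-0-2 (-0.63 ± 0.06, adjusted p = 1.8e-06) and Col-0-1 (-0.39 ± 0.06, adjusted p = 4.1e-04), and PSAK likewise (-0.55 and -0.26). The differences between the wild-type sets, 0.29 for PSAK and 0.23 for PSAO, turned to -0.06 and -0.07 and lost their calls when trends with exon length and GC content were removed, and that of PSAO was 0.08 and lost its call when FPKM sums were made equal. Of the other subunits on the membrane and lumen side, PSAF (plastocyanin docking), PSAG, PSAL and PSAN rose in dellaq against both sets, while PSAH1 and PSAH2 passed against Col-0-2 and not against Col-0-1. Against Col-0-1 the calls of PSAF, PSAG and PSAL were lost with equal FPKM sums, that of PSAG also with length and GC trends removed, and that of PSAL also without Col-0-1 replicate 1 or dellaq replicate 3. PSAH1 was the least abundant of these 8 genes, at 173, 159 and 186 FPKM in dellaq, 149.9, 153 and 144 in lec1-4, 87.0, 82.7 and 91.1 in Col-0-2 and 166, 172 and 197 in Col-0-1.

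In photosystem II, PSBO, PSBP and PSBQ shield the oxygen-evolving manganese cluster on the lumen side, and PSBR lies beside them. In dellaq all 6 genes exceeded Col-0-2 (0.20 to 1.183), and in lec1-4 all 6 were lower than in Col-0-1 (-1.11 to -0.22). PSBR (AT1G79040), the most abundant, was at 1382, 1345 and 1428 FPKM in dellaq, 1018, 1085 and 1045 in lec1-4, 702, 709 and 733 in Col-0-2 and 1197, 1164 and 1310.3 in Col-0-1. PSBO2 (AT3G50820), the second PSBO copy, was at 329.9, 289.8 and 327 FPKM in dellaq, 135, 137 and 132 in lec1-4, 137, 152 and 147 in Col-0-2 and 280.4, 291 and 304 in Col-0-1. PSBO2 fell in lec1-4 against Col-0-1 (-1.11 ± 0.06, adjusted p = 8.7e-08), while its value against Col-0-2 was -0.11 ± 0.06 (adjusted p = 0.1). PSBQ2 rose in dellaq by 1.183 ± 0.05 against Col-0-2 (adjusted p = 3.6e-09) and 0.30 ± 0.05 against Col-0-1 (adjusted p = 1.2e-04), whereas PSBQ1, its paralog, changed by 0.20 and -0.18, the second of which was 0.08 under median-ratio scaling.

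The remaining photosystem II genes encode the small subunits PSBW, PSBX and PSBY and PSBS, which triggers the harmless release of excess excitation. PSBX, the most abundant over the 12 libraries, was at 705, 663 and 728 FPKM in dellaq, 415, 414 and 433 in lec1-4, 415, 434 and 453 in Col-0-2 and 494, 489 and 597 in Col-0-1. PSBW rose in dellaq against both sets (0.82 and 0.61) and fell in lec1-4 against both (-0.22 and -0.43), but the call against Col-0-2 in lec1-4 was lost with equal FPKM sums and with length and GC trends removed. PSBS (AT1G44575) was at 400.1, 374 and 405 FPKM in dellaq, 228, 222 and 224 in lec1-4, 175, 194 and 193 in Col-0-2 and 360.5, 344 and 378 in Col-0-1. The call of PSBS in dellaq against Col-0-1 (0.12) was lost in 12 of 22 alternative settings, 8 of which leave out a single library. PSBY (AT1G67740) differed from these, at 305, 295 and 315 FPKM in dellaq and 321, 313 and 306 in lec1-4, which overlapped, against 187, 207 and 210.0 in Col-0-2 and 401, 401 and 401 in Col-0-1. Both mutants lay between the wild-type sets for PSBY.

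The 6 pairs of near-equivalent paralogs allowed a comparison within each library that no scaling between libraries can move. Trends with exon length or GC content that differ between libraries could still move the ratios. The ratios were not recomputed with such trends removed. The exact permutation test (two-sided, 3 mutant against 6 wild-type libraries) cannot give a p below 0.0238, and p-values were adjusted over the 12 tests. Of these, 8 passed at the smallest possible p (adjusted p = 0.0357), and in each the mutant libraries lay outside the range of all wild-type libraries.

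The PSBO1/PSBO2 ratio was 2.84, 3.18 and 2.98 in dellaq and 5.21, 5.17 and 5.62 in lec1-4, against 3.73, 3.60 and 3.74 in Col-0-2 and 3.46, 3.27 and 3.31 in Col-0-1. The log2 ratio differed from wild type by -0.23 in dellaq and by 0.60 in lec1-4, so PSBO1 made up less of the pair in dellaq and more in lec1-4. PSAD1/PSAD2 showed the same order, averaging 2.71 ± 0.141 in dellaq, 4.16 ± 0.189 in lec1-4, 3.298 ± 0.0612 in Col-0-2 and 3.52 ± 0.0586 in Col-0-1 (SD, n = 3), with log2 differences from wild type of -0.33 in dellaq and 0.29 in lec1-4. LHCB4.1/LHCB4.2 averaged 3.19 ± 0.165 in dellaq, 4.89 ± 0.239 in lec1-4, 3.69 ± 0.207 in Col-0-2 and 4.23 ± 0.00774 in Col-0-1, with differences of -0.31 and 0.31.

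PSBQ1/PSBQ2 was lowest in dellaq, at 0.328, 0.311 and 0.335, against 0.655, 0.618 and 0.651 in Col-0-2 and 0.444, 0.479 and 0.433 in Col-0-1, a log2 difference of -0.73. PSAH1/PSAH2 was high in lec1-4, at 0.911, 0.931 and 0.894, against 0.481, 0.468 and 0.505 in Col-0-2 and 0.723, 0.721 and 0.767 in Col-0-1, a log2 difference of 0.61. The other 4 tests, PSAE1/PSAE2 in both mutants, PSAH1/PSAH2 in dellaq and PSBQ1/PSBQ2 in lec1-4, had adjusted p-values of 0.222 to 0.476. The wild-type sets themselves differed in several ratios (PSAH1/PSAH2 averaged 0.485 in Col-0-2 and 0.737 in Col-0-1), so the 6 wild-type libraries are not fully exchangeable. Against either set alone, 3 libraries against 3 cannot give a p below 0.10.

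**Figure D4:**
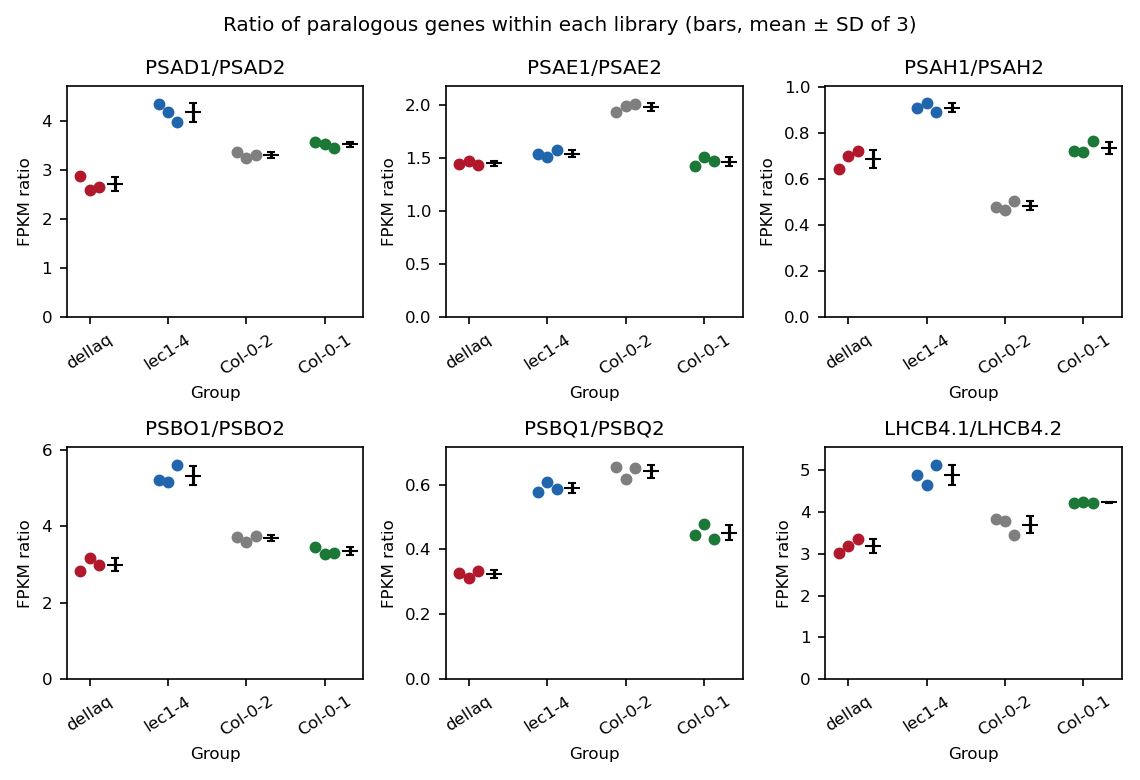
FPKM ratio of 6 paralog pairs within each library (vertical axes, each from 0) in dellaq, lec1-4, Col-0-2 and Col-0-1, with points for libraries and bars for the mean ± SD of 3. For PSAD1/PSAD2, PSBO1/PSBO2 and LHCB4.1/LHCB4.2 the dellaq libraries lie below and the lec1-4 libraries above all 6 wild-type libraries.

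The balance between complexes was also compared within libraries, as a description without a test. The summed PSA level over the summed PSB level was 0.855 in dellaq and 0.863 in Col-0-2, and 0.754 in lec1-4 and 0.758 in Col-0-1. This ratio thus grouped the libraries as the plastid-encoded FPKM did, and not by genotype. Neither PSA over PSB nor LHCA over LHCB was recomputed with length and GC trends removed. LHCA over LHCB was 0.225 in dellaq, 0.258 in lec1-4, 0.266 in Col-0-2 and 0.228 in Col-0-1, so the groups with less total signal had relatively more LHCA. Transcripts of the 42 genes are short (median exon length 1221 bases, against 1735 over tested genes) and richer in GC (43.8% against 41.1%). With trends against both removed, 39 genes were called higher in dellaq against Col-0-2 (background 30.4%). In the same setting 39 were called lower in lec1-4 against Col-0-1 (background 13.0%).

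The known activators of these genes did not all follow them. GLK1, a transcription factor that directly activates antenna and chlorophyll genes, was at 28.2, 22.6 and 28.0 FPKM in dellaq, 10.1, 7.59 and 11.6 in lec1-4, 9.86, 12.9 and 13.5 in Col-0-2 and 32.3, 34.1 and 36.5 in Col-0-1. The order of its group means, with Col-0-1 and dellaq high and Col-0-2 and lec1-4 low, was that of the summed LHCB1 level (6812 FPKM in dellaq, 4191 in lec1-4, 3527 in Col-0-2, 7432 in Col-0-1) except that lec1-4 lay below Col-0-2. GLK1 was lower in lec1-4 than in Col-0-1 (-1.73 ± 0.14, adjusted p = 3.8e-06) and higher in dellaq than in Col-0-2 (1.06 ± 0.14, adjusted p = 3.6e-05). In the comparisons with smaller GLK1 changes the values were -0.38 ± 0.14 for dellaq against Col-0-1 (adjusted p = 0.032) and -0.29 ± 0.14 for lec1-4 against Col-0-2 (adjusted p = 0.092). The first of these lost its call without the filter on low values (adjusted p = 0.0554), under median-ratio scaling (-0.13, adjusted p = 0.434), under upper-quartile scaling (-0.20, adjusted p = 0.207), with length and GC trends removed (-0.15, adjusted p = 0.353) and on leaving out single libraries (adjusted p up to 0.127).

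GLK2, its paralog, was at 12.04, 10.9 and 11.2 FPKM in dellaq, 13.3, 15.7 and 13.5 in lec1-4, 6.56, 5.41 and 7.92 in Col-0-2 and 12.2, 11.7 and 14.4 in Col-0-1, so lec1-4 was not low for GLK2. The GATA factor genes GNC and CGA1, which promote greening, averaged 5.17 ± 1.06 and 4.12 ± 0.571 FPKM in dellaq, 5.02 ± 0.537 and 4.25 ± 0.563 in lec1-4, 2.61 ± 0.213 and 1.16 ± 0.318 in Col-0-2, and 6.39 ± 0.284 and 6.64 ± 0.619 in Col-0-1 (SD, n = 3 each). HY5, a bZIP factor of light signalling, averaged 14.7 ± 1.503 FPKM in dellaq, 16.4 ± 0.966 in lec1-4, 10.1 ± 0.629 in Col-0-2 and 14.6 ± 1.19 in Col-0-1. GUN1, a plastid protein of plastid-to-nucleus signalling, averaged 58.6 ± 1.80 FPKM in dellaq, 80.5 ± 3.65 in lec1-4, 68.3 ± 3.22 in Col-0-2 and 75.5 ± 1.16 in Col-0-1. GNC, CGA1 and HY5 were lowest in Col-0-2, and GUN1 was lowest in dellaq.

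Among all 12 regulators listed, against Col-0-1, dellaq had 0 higher (19.4% of all tested genes) and 8 lower (50.9% of all tested genes) by limma. Against Col-0-2, lec1-4 had 11 higher (42.7% of all tested genes) and 0 lower (23.3%). In dellaq against Col-0-1, 2 regulators were higher under median-ratio scaling and 1 under upper-quartile scaling, and with length and GC trends removed 1 was higher and 5 were lower. In lec1-4 against Col-0-2, 1 was lower in each of these 3 settings. Against Col-0-2, dellaq had 7 regulators higher (21.9% of all tested genes) and 2 lower (41.6%). The 2 lower became 0 under median-ratio scaling and 1 with length and GC trends removed. Against Col-0-1, lec1-4 had 2 regulators higher (15.8%) and 3 lower (10.7%). The 2 higher became 0 with a pseudocount of 0.1 and 1 under median-ratio, upper-quartile or equal-sum scaling. The 3 lower became 5 with length and GC trends removed. Each count of 0 given for this and the following gene lists in the main fit was also 0 at an unadjusted p under 0.05. Counts of 0 in alternative settings were not checked in this way. The counts of the following lists, and those of the regulators in alternative settings, stand beside these shares of all tested genes. A count in an alternative setting is to be read beside the share in that setting. For dellaq the shares were 21.9% higher and 41.6% lower against Col-0-2, and 19.4% higher and 50.9% lower against Col-0-1. Against Col-0-1 they became 32.4% and 29.8% under median-ratio scaling and 27.9% and 35.8% under upper-quartile scaling. They were 13.2% and 64.2% with equal FPKM sums and 31.4% and 29.3% with length and GC trends removed. Against Col-0-2 the same settings gave, in order, 30.5% and 31.2%, 26.7% and 34.9%, 20.1% and 44.6%, and 30.4% and 31.0%. With only the compared libraries they were 20.8% and 39.1% against Col-0-2. For lec1-4 the shares were 15.8% higher and 10.7% lower against Col-0-1, and 42.7% higher and 23.3% lower against Col-0-2. The same settings, in order, gave 29.6% and 32.3%, 31.6% and 30.7%, 55.5% and 17.2%, and 29.0% and 31.2% against Col-0-2. Against Col-0-1 they gave 11.8% and 12.5%, 11.9% and 12.5%, 16.1% and 10.8%, and 12.1% and 13.0%. The share higher against Col-0-1 was 15.3% with a pseudocount of 0.1, 11.4% without the filter on low values and 14.6% with limma without trend. The sigma factor genes encode proteins that direct the plastid RNA polymerase. SIG4 averaged 0.359 ± 0.0850 FPKM in dellaq, 5.80 ± 0.751 in lec1-4, 0.754 ± 0.246 in Col-0-2 and 3.75 ± 0.816 in Col-0-1. SIG3 averaged 8.72 ± 0.420 FPKM in dellaq, 15.8 ± 0.872 in lec1-4, 7.78 ± 0.289 in Col-0-2 and 14.1 ± 0.404 in Col-0-1. SIG6 averaged 18.7 ± 0.218 FPKM in dellaq, 30.1 ± 1.72 in lec1-4, 22.1 ± 0.293 in Col-0-2 and 32.6 ± 0.803 in Col-0-1. Both SIG3 and SIG4 were low in dellaq and Col-0-2 and high in lec1-4 and Col-0-1, the division seen in plastid-encoded FPKM with its direction reversed.

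**Figure D5:**
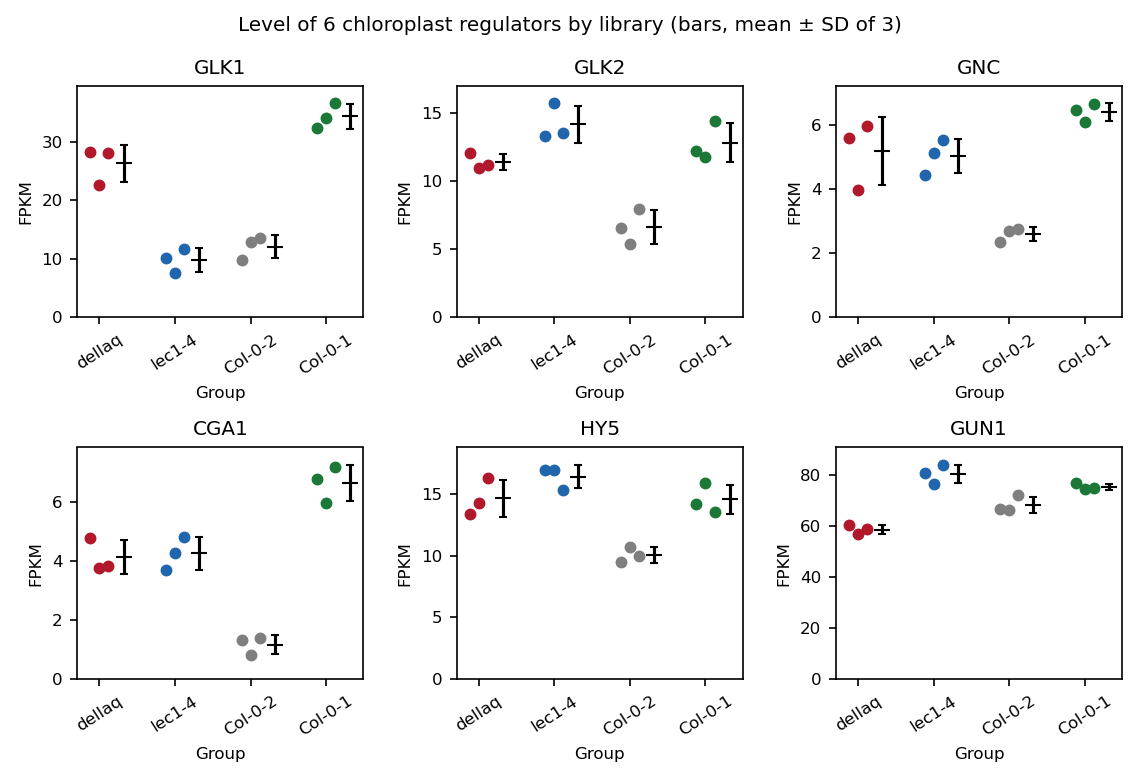
FPKM of 6 chloroplast regulators per library (vertical axes, each from 0) in dellaq, lec1-4, Col-0-2 and Col-0-1, with points for libraries and bars for the mean ± SD of 3. GLK1 is high in dellaq and Col-0-1 and low in lec1-4 and Col-0-2, while GLK2, GNC, CGA1 and HY5 are low in Col-0-2 alone.

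Chlorophyll synthesis genes divided like the antenna genes in dellaq against Col-0-2 and in lec1-4 against Col-0-1. Of 26 tested, 19 were higher and 1 lower in dellaq against Col-0-2 (0 lower under median-ratio or upper-quartile scaling, with length and GC trends removed, or with only the compared libraries), and 0 were higher and 20 lower in lec1-4 against Col-0-1. Against Col-0-1, dellaq had 5 higher and 13 lower, near the shares of all tested genes (19.4% and 50.9%). Under median-ratio scaling these became 13 higher (32.4% of all tested genes) and 7 lower (29.8%). Against Col-0-2, lec1-4 had 15 higher (42.7% of all tested genes) and 5 lower (23.3%). Under median-ratio scaling these became 8 higher (29.6%) and 7 lower (32.3%). CHLP, geranylgeranyl reductase, which makes the phytol tail, averaged 364 ± 9.54 FPKM in dellaq, 144 ± 5.23 in lec1-4, 165 ± 8.02 in Col-0-2 and 225 ± 11.96 in Col-0-1, and rose in dellaq against both sets (1.13 and 0.69). PPOX1 and HEMC, 2 earlier enzymes of tetrapyrrole synthesis, averaged 38.5 ± 1.78 and 115 ± 3.28 FPKM in dellaq, 46.6 ± 1.05 and 105 ± 5.59 in lec1-4, 32.5 ± 0.297 and 75.4 ± 4.86 in Col-0-2, and 52.2 ± 2.11 and 139 ± 1.24 in Col-0-1. HEMD and PORC averaged 19.3 ± 0.954 and 25.6 ± 1.86 FPKM in dellaq, 20.6 ± 0.997 and 30.1 ± 0.0732 in lec1-4, 12.04 ± 0.556 and 27.2 ± 1.80 in Col-0-2, and 22.1 ± 1.36 and 38.5 ± 1.14 in Col-0-1.

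The 5 genes for insertion of antenna proteins into the thylakoid did not move together. CPSRP43, a chaperone that carries LHC proteins through the stroma, averaged 86.4 ± 8.79 FPKM in dellaq, 35.8 ± 1.48 in lec1-4, 57.6 ± 4.47 in Col-0-2 and 53.9 ± 2.11 in Col-0-1. It rose in dellaq against Col-0-2 (0.58 ± 0.07, adjusted p = 2.0e-05) and Col-0-1 (0.67 ± 0.07, adjusted p = 5.2e-06) and fell in lec1-4 against both (-0.67 and -0.58). Its partner CPSRP54 and the membrane insertase gene ALB3 averaged 58.1 ± 5.60 and 66.4 ± 1.43 FPKM in dellaq, 65.7 ± 2.48 and 85.4 ± 4.41 in lec1-4, 54.5 ± 3.71 and 64.5 ± 4.16 in Col-0-2, and 85.3 ± 1.53 and 101 ± 2.48 in Col-0-1. Both fell in dellaq against Col-0-1, and ALB3 rose in lec1-4 against Col-0-2. The rise of CPSRP54 in lec1-4 against Col-0-2 (0.27) lost its call under median-ratio scaling (0.109, adjusted p = 0.124), upper-quartile scaling (0.136, adjusted p = 0.0655) and with length and GC trends removed (0.0771, adjusted p = 0.291).

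Of 10 electron transport genes, 8 were higher and 0 lower in dellaq against Col-0-2, and 1 was higher and 6 lower in lec1-4 against Col-0-1. That 1 call was lost without the filter on low values, under median-ratio and upper-quartile scaling, with length and GC trends removed and with limma without trend. Against Col-0-1, dellaq had 5 electron transport genes higher and 4 lower. These became 3 higher with equal FPKM sums (13.2% of all tested genes) and 1 lower under median-ratio scaling (29.8%). Against Col-0-2, lec1-4 had 7 higher and 3 lower, and the 3 became 1 with equal FPKM sums. PETC, the Rieske protein of cytochrome b6f, averaged 327 ± 18.7 FPKM in dellaq, 202 ± 1.24 in lec1-4, 172 ± 5.56 in Col-0-2 and 249 ± 3.73 in Col-0-1. The ferredoxin genes FD1 and FD2 averaged 310.2 ± 22.8 and 555 ± 27.7 FPKM in dellaq, 157 ± 2.79 and 372 ± 11.9 in lec1-4, 246 ± 11.95 and 425 ± 25.0 in Col-0-2, and 278 ± 13.7 and 415 ± 9.13 in Col-0-1. The ferredoxin-NADP reductase gene FNR2 averaged 41.0 ± 4.09 FPKM in dellaq, 124 ± 1.85 in lec1-4, 38.4 ± 0.779 in Col-0-2 and 110.4 ± 1.28 in Col-0-1, while FNR1 averaged 235 ± 12.8 FPKM in dellaq, 193 ± 3.69 in lec1-4, 127 ± 3.21 in Col-0-2 and 261 ± 10.8 in Col-0-1. FNR2 was thus low in dellaq and Col-0-2 and high in lec1-4 and Col-0-1, the division seen in plastid-encoded FPKM with its direction reversed.

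Of 15 photosystem assembly factors and kinases, 9 were higher and 0 lower in dellaq against Col-0-2. In lec1-4 against Col-0-1, 0 were higher and 5 lower, the last of which became 8 with length and GC trends removed. Against the other wild-type sets most went the opposite way. In dellaq 3 were higher and 11 lower than in Col-0-1, and the 11 became 7 under median-ratio scaling (29.8% of all tested genes). In lec1-4 11 were higher and 2 lower than in Col-0-2, and the 2 became 0 with equal FPKM sums. PSB27, an assembly factor on the lumen side of photosystem II, averaged 155 ± 11.4 FPKM in dellaq, 67.1 ± 2.37 in lec1-4, 76.2 ± 4.88 in Col-0-2 and 88.7 ± 5.75 in Col-0-1. HCF136, HCF173 and STN7 (2 assembly factors of photosystem II and the kinase of LHCII) averaged 28.6 ± 1.07, 27.9 ± 1.69 and 11.5 ± 0.186 FPKM in dellaq, 48.9 ± 1.26, 38.2 ± 0.969 and 21.9 ± 1.93 in lec1-4, 25.0 ± 0.803, 18.3 ± 0.618 and 11.1 ± 0.210 in Col-0-2, and 50.2 ± 1.0999, 40.6 ± 0.702 and 20.8 ± 0.639 in Col-0-1. Of 4 nuclear ATP synthase genes, 3 rose in dellaq against Col-0-2 and 3 fell in lec1-4 against Col-0-1. In dellaq against Col-0-1, 0 of these 4 genes rose and 2 fell, which became 3 and 1 under median-ratio scaling (32.4% and 29.8%). In lec1-4 against Col-0-2, 2 of the 4 genes rose and 0 fell, while 1 fell under median-ratio or upper-quartile scaling. Their member ATPG averaged 194 ± 5.03 FPKM in dellaq, 242 ± 2.71 in lec1-4, 136 ± 3.14 in Col-0-2 and 263 ± 12.3 in Col-0-1. Of 7 LHC-like genes, which bind pigment under stress or during assembly, 5 were higher and 1 lower in dellaq against Col-0-2, and 1 was higher and 3 lower in lec1-4 against Col-0-1. In dellaq against Col-0-2, 3 of these were higher with equal FPKM sums or with only the compared libraries in the fit, and 0 were lower under median-ratio scaling, upper-quartile scaling and with length and GC trends removed. In lec1-4 against Col-0-1, 2 were higher with only the compared libraries. Against Col-0-1, dellaq had 2 LHC-like genes higher and 5 lower, and the 5 became 3 under median-ratio scaling (29.8%). Against Col-0-2, lec1-4 had 5 LHC-like genes higher and 0 lower, which became 2 and 1 under median-ratio scaling (29.6% and 32.3%). OHP1 and OHP2, whose products form a pair, averaged 24.0 ± 2.78 and 24.4 ± 0.991 FPKM in dellaq, 12.1 ± 0.860 and 36.5 ± 1.81 in lec1-4, 13.8 ± 0.252 and 18.8 ± 0.742 in Col-0-2, and 13.9 ± 2.54 and 36.8 ± 1.67 in Col-0-1. ELIP1 and ELIP2, early light-induced proteins, averaged 2.43 ± 0.471 and 137 ± 7.17 FPKM in dellaq, 10.5 ± 2.95 and 173 ± 2.04 in lec1-4, 3.02 ± 0.209 and 155 ± 4.76 in Col-0-2, and 5.27 ± 0.762 and 211 ± 20.9 in Col-0-1. Both ELIP genes were lowest in dellaq, and ELIP1 rose in lec1-4 against both sets (1.48 and 0.84).

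Of 19 tested plastid-encoded photosystem loci, 17 were higher and 0 lower in dellaq against Col-0-2, and 0 were higher and 1 lower in lec1-4 against Col-0-1. Against Col-0-1, dellaq had 19 higher and 0 lower, and against Col-0-2, lec1-4 had 0 higher and 15 lower. Most plastid transcripts lack a stable poly-A tail, so their values after poly-T selection do not measure their abundance. The summed FPKM of the 20 loci listed was 2442 to 3117 in dellaq, 33.8 to 58.2 in lec1-4, 1402 to 1617 in Col-0-2 and 47.0 to 84.9 in Col-0-1.

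Markers of other seed tissues moved with the groups too, and their part in the results was not tested. The summed FPKM of 6 seed coat markers was 230 to 270 in dellaq, 790 to 871 in lec1-4, 745 to 860 in Col-0-2 and 647 to 757 in Col-0-1, and all 6 were lower in dellaq than in either wild-type set. The sum of 6 endosperm markers was 2733 to 3004 in dellaq, 563 to 726 in lec1-4, 452 to 543 in Col-0-2 and 1217 to 1650 in Col-0-1, of which EPR1 alone averaged 2867 ± 143 in dellaq, 610.4 ± 88.4 in lec1-4, 437 ± 47.8 in Col-0-2 and 1382 ± 219 in Col-0-1. Of these 6, 1 was higher and 3 lower in dellaq against Col-0-2 (21.9% and 41.6% of all tested genes). Against Col-0-1, 1 was higher and 2 lower (19.4% and 50.9%), so the sum does not stand for the list. The sum of 7 embryo markers was 329 to 401 in dellaq, 245 to 262 in lec1-4, 289 to 300 in Col-0-2 and 352 to 363 in Col-0-1. Of the 7, 2 were higher and 2 lower in dellaq against Col-0-2, and 1 was higher and 2 lower against Col-0-1. LEC1 itself is 1 of these 7, so the low sum in lec1-4 includes the loss of LEC1 transcript. LEC1 was at 44.6 to 113.9 FPKM in dellaq, 2.38 to 3.42 in lec1-4, 122.7 to 124.5 in Col-0-2 and 67.5 to 93.2 in Col-0-1. The sum of 8 silique-wall and stomatal markers was 103 to 125 in dellaq, 151 to 169 in lec1-4, 120 to 132 in Col-0-2 and 147 to 151 in Col-0-1, and MUTE was under 1 FPKM in all 12 libraries. CA1, a carbonic anhydrase abundant in leaves, averaged 0.644 ± 0.122 FPKM in dellaq, 97.8 ± 3.83 in lec1-4, 20.3 ± 0.476 in Col-0-2 and 54.3 ± 2.18 in Col-0-1, so it was lowest in the group where most photosystem genes were highest. The sum of the 3 green-tissue markers, CA1 included, was 2641 to 2856 in dellaq, 2209 to 2364 in lec1-4, 1674 to 1862 in Col-0-2 and 2708 to 3039 in Col-0-1. Of the 3, 1 was higher and 2 lower in dellaq against Col-0-2, and 0 higher and 2 lower against Col-0-1. That 0 became 1 under median-ratio or upper-quartile scaling. In lec1-4, 3 were higher than in Col-0-2, and 1 was higher and 1 lower than in Col-0-1. The sum thus does not follow each marker. No marker was at 0 in all 12 libraries.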

How the data were processed

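RNA-seq of 12 seed libraries was deposited as 4 tables of FPKM (fragments scaled to transcript length and library size), which the authors made per gene and library. The submitters' processing notes list TopHat2 2.0.12 and Bowtie2 2.2.3, both aligners, as well as DESeq 1.18.0 and HTSeq 0.6.1, with no role. Build, annotation and FPKM method: not given in the sources used here. The kit does not mark strand, so overlapping antisense transcripts cannot be told apart. Depth came from the smallest FPKM steps per library. A gene needed 1 FPKM or more in 3 or more libraries, which 20222 of 33602 genes met and 13380 did not. The test was limma 3.58.1 (limma-trend, R 4.3.3) on log2(FPKM + 1), 2-sided, with 4 group means in 1 model (8 residual degrees of freedom), and p-values were adjusted by Benjamini-Hochberg over all genes tested. The added 1 understates changes of low genes. A count model had been planned for counts and was not used. Paralog ratios were tested by exact permutation (SciPy 1.17.1, Python 3.11.15), and sequences were compared with Biopython 1.88 on RefSeq TAIR10.1. The limma step was first tested on simulated data. The genes and lists were chosen with earlier results of these data known. The text names the most and least abundant gene of each role group, the 3 largest called rises and falls per comparison, the paralog pairs, 6 regulators, and up to 3 genes per list with the smallest p in lec1-4 (against Col-0-2) and in dellaq (against Col-0-1). Other genes were named after their values were seen. Alternatives were pseudocount, filter, scaling, length and GC, samples in the fit, trend, fold limit, block and leaving out each library.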

Additional observations from a re-analysis of the deposited data

How the results depend on the processing

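The calls of all 41 genes called for dellaq against Col-0-2 held in all 22 alternative settings, as did 37 of 39 for lec1-4 against Col-0-1, 38 of 39 for dellaq against lec1-4, 32 of 38 for Col-0-2 against Col-0-1, 20 of 28 for dellaq against Col-0-1 and 17 of 28 for lec1-4 against Col-0-2. A further requirement was a log2 change of at least 1, with shares of all tested genes in brackets. For dellaq, 2 genes were then higher (4.8%) and 1 lower (6.7%) against Col-0-1, and 8 (4.9%) and 1 (8.4%) against Col-0-2. For lec1-4, 1 was higher (4.6%) and 0 lower (6.35%) against Col-0-2, and 0 (1.2%) and 3 (1.2%) against Col-0-1. For dellaq against lec1-4, 11 were higher (5.7%). For Col-0-2 against Col-0-1, 0 were higher (6.8%) and 6 lower (4.6%). With equal FPKM sums, 15 were lower for dellaq against Col-0-1 (64.2% of all tested genes). In that setting 23 were higher (55.5%) and 7 lower (17.2%) for lec1-4 against Col-0-2. It also gave 4 lower for dellaq against lec1-4 (66.0%) and 1 higher for Col-0-2 against Col-0-1 (19.2%). Median-ratio scaling gave 21 lower for lec1-4 against Col-0-2, and removing length and GC trends gave 1 higher for Col-0-2 against Col-0-1. Median-ratio scaling moved the median of all genes for dellaq against Col-0-1 from -0.22 to 0.00 and equal sums to -0.39. Above all wild-type libraries in dellaq were 32 genes under median-ratio scaling, 13 with equal sums and 39 against Col-0-2 alone, and 6 lay below Col-0-1 alone. In lec1-4, 17 lay above Col-0-2 alone, 7 below all wild-type libraries with equal sums and 39 below Col-0-1 alone. The share of all tested genes outside these ranges was not taken in these settings. These counts of non-overlap therefore have no background to be read against.

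With equal sums the dellaq change against Col-0-1 was -0.0648 for PSBS, -0.00884 for PSBR, -0.00918 for LHCA4 and -0.0405 for PSAL. Under median-ratio and upper-quartile scaling it was 0.0798 and 0.00102 for PSBQ1, 0.10 and 0.0242 for LHCB3, and 0.15 and 0.0728 for ATPC1, which was 0.10 with length and GC trends removed. With those trends removed, Col-0-2 minus Col-0-1 was -0.0583 for PSAK and -0.0716 for PSAO, and GUN1 was 0.0125 for dellaq against Col-0-1 and -0.0602 for lec1-4 against Col-0-2. The cause was not tested. Samples with the same replicate number did not deviate together (r from -0.102 to 0.189, 2 of 18 pairs over 0.1), and a replicate block left the counts called among the 42 genes as they were in all 6 comparisons. Over all tested genes it gave 3880 higher and 10197 lower for dellaq against Col-0-1, against 3917 and 10301 without it. It also left 0 electron transport genes higher for lec1-4 against Col-0-1 and 1 ATP synthase gene lower for dellaq against Col-0-1, where ATPC1 lost its call (adjusted p = 0.0513). Of the 12 paralog ratios, 8 passed; 0 passed with a replicate block (6 at an unadjusted p under 0.05), 0 against either wild-type set alone, where the smallest possible p is 0.10, and 0 to 0 without single libraries (4 to 8 unadjusted), where fewer samples raise the smallest adjusted p. Without the 5 LHCB1 copies the summed level was 18173 FPKM in dellaq, 10939.9 in lec1-4, 10464 in Col-0-2 and 15350.2 in Col-0-1.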
